A study of Mus musculus with 17 samples.

Results

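The genes described here are a set of type I interferon effector genes, whose products carry out the antiviral and growth-restraining work of an interferon response. The set names 42 genes, chosen with earlier results of these data known. A gene entered when its symbol was a row of the raw count table, with no cut on its level. Of the 42 genes, 40 were matched among the 35321 genes of the table, and Mx1 and Mx2 are not analysed here. All 40 passed the filter on low counts, which left 14920 genes for testing.

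The libraries came from poly(A) RNA of sorted bone marrow hematopoietic stem and progenitor cells of wild-type C57BL/6J mice. All animals had an intraperitoneal injection, either phosphate buffered saline (PBS, 5 libraries), bacterial lipopolysaccharide (LPS), or LPS plus an IL-10 receptor blocking antibody. Marrow was taken 24 h after LPS (3 libraries), 24 h after LPS with antibody (3), 72 h after LPS (3) or 72 h after LPS with antibody (3), 17 libraries in all. There was no group given the antibody alone, no isotype antibody is named, and the sources give the injected amounts in conflicting units, so no dose is given here. The labels do not say whether each library is 1 animal, several pooled animals or a repeat preparation, so the p-values measure the spread between these libraries only. The PBS libraries carry a day label and no hour, and no PBS group is labelled 24 h or 72 h. Differences from PBS therefore cannot separate treatment from time of collection. The age and sex of the mice are not given in the sources used here.

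Type I interferons bind a receptor made of IFNAR1 and IFNAR2, whose kinases JAK1 and TYK2 activate a transcription factor complex that includes IRF9. This complex binds the interferon-stimulated response element (ISRE) in the promoters of effector genes. LPS acts through Toll-like receptor 4 and can bring about interferon production, IL-10 restrains inflammatory responses, and interferon is known to act on hematopoietic stem cells directly. Several of these genes also answer to interferon gamma, so their levels do not name the ligand.

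Total counts per library ran from 10516722 to 16006001. The stem and progenitor markers Kit, Cd34 and 8 others were detected in every library, with a summed level between 1028 and 2502 CPM (counts relative to the library total, scaled by the trimmed mean of M-values). Genes of other blood cells were also present, and neutrophil genes summed to between 2088 and 12310 CPM. In bulk RNA, fewer cells of a type and less RNA per cell cannot be told apart. No library duplicated another: over 136 pairs of libraries, at most 2.96% of tested genes had equal counts. LPS library 1 at 24 h stood apart with the lowest scaling factor, 0.799, and the fewest detected genes, 16431.

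Part of the set carried the core of the element through which the pathway acts in the promoter window searched, and the stretches below are given because they hold it upstream of the start site. RefSeq promoter windows (GRCm38.p6, 250 bases before to 50 after the start) were at hand for 32 of the 40 genes. The ISRE core searched was TTTC, any 2 bases and TTTC, on either strand, which reads GAAA, any 2 bases and GAAA on the other. It occurred in 15 of the 32 genes, 46.9%, and in 3.99% of all 27025 genes with a window. The gamma-activated sequence core (TTC, any 3 bases and GAA), which can overlap an ISRE core, occurred in 7 of the 32 genes, 21.9%, against 9.55% of all genes. A match is a description of these letters and not evidence of binding. Of the 15 genes, 12 had a match wholly before the start. The following 8 stretches run 5′ to 3′ on the strand of the gene, with the ISRE core in capitals, including overlapping cores.
Isg15: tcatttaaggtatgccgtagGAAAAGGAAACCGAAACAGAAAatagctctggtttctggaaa
Bst2: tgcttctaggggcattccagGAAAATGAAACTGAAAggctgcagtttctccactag
Oas1a: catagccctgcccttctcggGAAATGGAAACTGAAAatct
Oas3: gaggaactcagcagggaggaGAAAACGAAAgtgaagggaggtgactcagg
Rsad2: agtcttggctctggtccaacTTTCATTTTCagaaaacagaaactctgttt
Ifit1: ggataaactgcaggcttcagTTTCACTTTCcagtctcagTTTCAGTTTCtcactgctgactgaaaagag
Ifit3: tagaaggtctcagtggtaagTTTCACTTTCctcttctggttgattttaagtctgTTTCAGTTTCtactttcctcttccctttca
Ifit3b: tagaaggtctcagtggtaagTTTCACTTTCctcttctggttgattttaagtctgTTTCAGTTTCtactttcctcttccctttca

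On GRCm38 the Isg15 stretch lies at chr4:156200855-156200916 (minus strand), the Bst2 stretch at chr8:71537567-71537622 (minus) and the Oas1a stretch at chr5:120907526-120907565 (minus). Oas3 lies at chr5:120777705-120777754 (minus) and Rsad2 at chr12:26456543-26456592 (minus). Ifit1 lies at chr19:34640765-34640833 (plus), Ifit3 at chr19:34583353-34583436 (plus) and Ifit3b at chr19:34607749-34607832 (plus). Isg15 held 3 overlapping cores, and Bst2 and Oas1a held 2 overlapping cores each. The Ifit3 and Ifit3b stretches read the same letter for letter. Reads of these 2 genes could be split between near-identical copies, so their separate levels are uncertain.

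Measured per kilobase of annotated exon, levels in the PBS libraries ranged widely. The highest was Bst2, which encodes tetherin, a membrane protein that holds budding virus at the cell surface, at 110.8 CPM per kb. Lgals3bp, a secreted galectin-binding glycoprotein, followed at 94.1 CPM per kb, and Phf11d was lowest at 0.676 CPM per kb.

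Differences between the groups are given further below, and the widest spread of the set lay inside the antibody groups. In both of them, library 1 was the highest of the 3 libraries for 40 of 40 genes, while over all tested genes library 1 was highest for 36.8% at 24 h and 38.3% at 72 h. It stood at least 2-fold above both other libraries for 31 genes at 24 h and 33 genes at 72 h, where the share of all tested genes was 7.37% and 5.72%. Library 3 was the lowest for 38 of 40 genes at 24 h and for 40 of 40 at 72 h, against 32.6% and 35.9% of all tested genes. The number in a label names a library and does not by itself tie the 24 h and 72 h libraries to one another.

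The mean log2 CPM of the 40 genes, set against the mean of the PBS libraries, summarises each library. The PBS libraries lay between -0.32 and 0.30 (SD 0.23, n = 5). The 3 LPS libraries at 24 h stood at 0.06, -0.08 and 0.53, and those at 72 h at -0.41, -0.80 and -0.82. With antibody, libraries 1, 2 and 3 stood at 1.63, 0.02 and -1.32 at 24 h and at 1.87, -0.16 and -1.19 at 72 h. Thus the antibody groups held both the highest and the lowest libraries of the study, and their group means, 0.11 (SD 1.48, n = 3) and 0.17 (SD 1.56, n = 3), fell near the PBS level. The summed CPM of the set ran from 1797 to 2408 in PBS, from 2170 to 2966 after LPS at 24 h and from 1504 to 1770 at 72 h. It ran from 1273 to 5825 with antibody at 24 h and from 1306 to 6738 with antibody at 72 h.

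**Figure D1:**
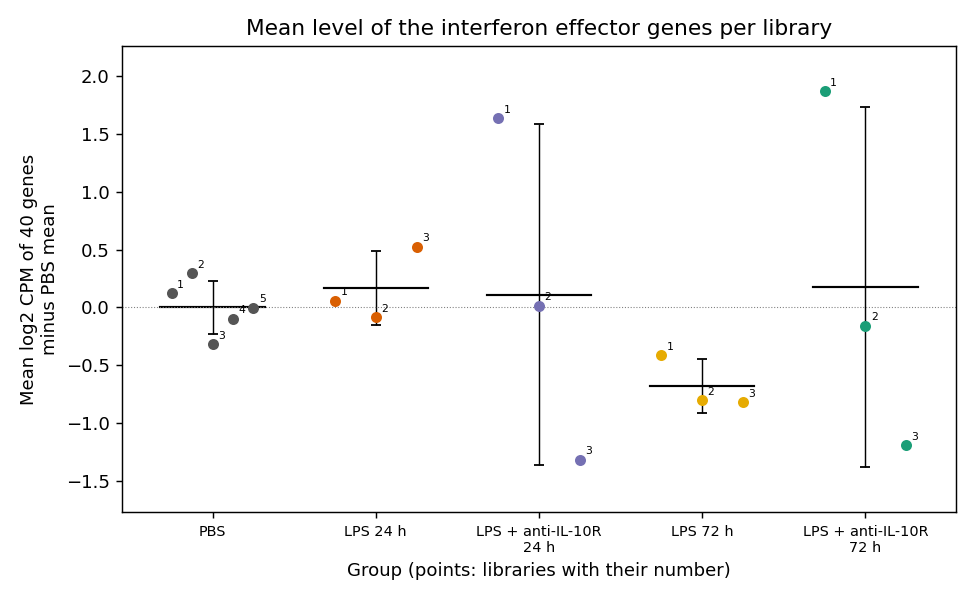
Mean log2 CPM of the 40 interferon effector genes in each library minus the PBS mean (y axis), by group (x axis); points are libraries with their number, horizontal lines are group means and whiskers 1 SD. Antibody libraries 1 lie at 1.63 and 1.87 and antibody libraries 3 at -1.32 and -1.19, outside the PBS range of -0.32 to 0.30.

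The spread inside groups was computed gene by gene as the SD of log2 CPM. Its median over the 40 genes was 0.27 in PBS, 0.43 after LPS at 24 h and 0.31 after LPS at 72 h, against 0.20, 0.30 and 0.23 over all tested genes. With antibody it was 1.23 at 24 h and 1.42 at 72 h, against 0.29 and 0.27 over all tested genes. The wide spread of the set in the antibody groups was therefore not shared by the bulk of the genes.

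**Figure D2:**
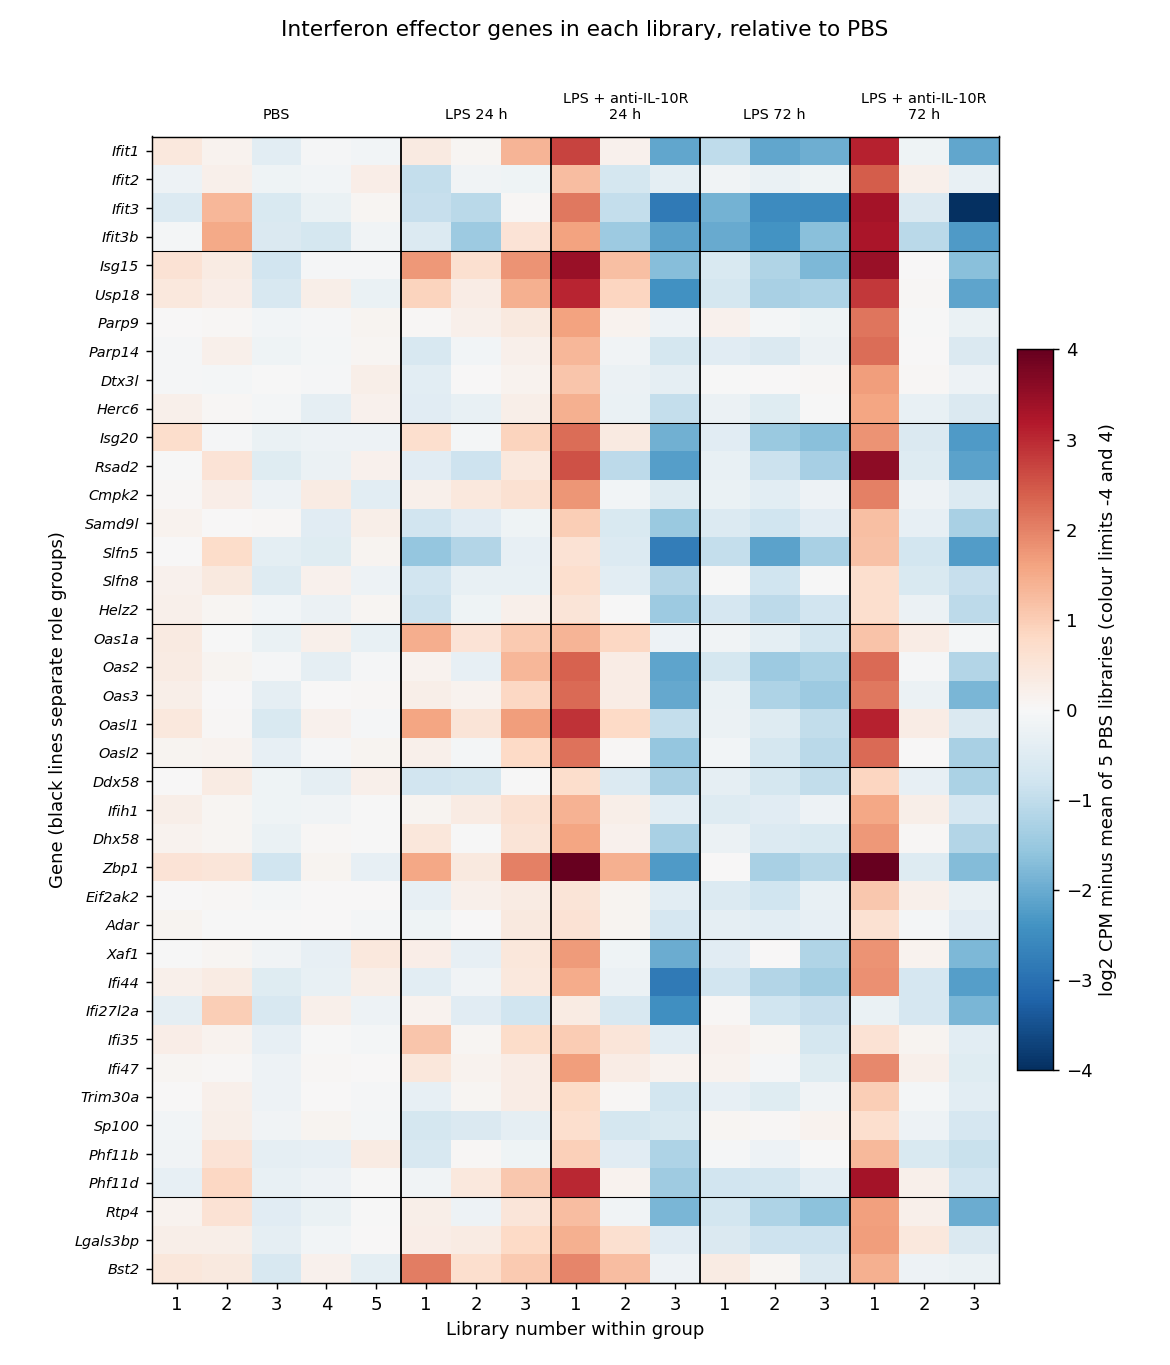
Each row is 1 of the 40 genes and each column 1 of the 17 libraries; colour gives log2 CPM minus the mean of the 5 PBS libraries, cut at -4 and 4, and black lines part the groups and the role groups. Antibody libraries 1 are red in nearly every row at both times, with Ifi27l2a at 72 h the exception, antibody libraries 3 are mostly blue, and the 3 LPS libraries at 72 h are mostly pale blue.

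The IFIT family, which binds foreign RNA and blocks its translation, had wide differences between libraries. Ifit1 was at 13.9, 11.6, 7.74, 10.1 and 9.54 CPM in PBS, at 13.4, 10.8 and 26.7 CPM after LPS at 24 h and at 5.04, 2.37 and 2.56 CPM after LPS at 72 h. With antibody, Ifit1 was at 68.0, 11.8 and 2.36 CPM at 24 h and at 88.2, 9.16 and 2.33 CPM at 72 h. All 3 LPS libraries at 72 h lay below every PBS library, whereas each antibody group had 1 library above and 1 library below the whole PBS range. Ifit3 was at 5.4, 20.2, 5.16, 6.58 and 8.28 CPM in PBS, at 4.08, 3.64 and 8.23 CPM after LPS at 24 h and at 2.02, 1.27 and 1.24 CPM after LPS at 72 h. With antibody, Ifit3 was at 34.9, 4.06 and 0.976 CPM at 24 h and at 81.0, 5.23 and 0.283 CPM at 72 h. The last value rests on 4 counts. Ifit2 kept a narrower range, 28.0 to 38.9 CPM in PBS, and read 75.8, 19.6 and 24.7 CPM with antibody at 24 h and 175, 37.3 and 26.4 CPM with antibody at 72 h.

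The OAS family makes the 2-5A signal that switches on RNase L when double-stranded RNA is present. Oas2 was at 36.2, 31.1, 27.5, 22.4 and 27.4 CPM in PBS, at 31.5, 22.9 and 71.7 CPM after LPS at 24 h and at 17.5, 10.3 and 11.9 CPM after LPS at 72 h. With antibody, Oas2 was at 148, 35.1 and 6.50 CPM at 24 h and at 138, 27.5 and 12.7 CPM at 72 h. The LPS libraries at 72 h did not overlap the PBS libraries. Oas3 showed the same order in the antibody groups, with 186, 46.5 and 9.11 CPM at 24 h and 164, 32.4 and 10.7 CPM at 72 h, beside 30.0 to 45.0 CPM in PBS. Oasl2, the member of the family with the highest CPM, read 265, 59.9 and 20.2 CPM with antibody at 24 h and 284, 58.9 and 23.7 CPM at 72 h, beside 46.9 to 65.0 CPM in PBS. Oas1a had the narrowest range of the family: 113, 78.5 and 38.2 CPM with antibody at 24 h and 98.6, 54.6 and 41.6 CPM at 72 h.

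Isg15, the ubiquitin-like protein that is joined to other proteins during an interferon response, was at 22.9, 19.3, 8.95, 14.9 and 14.8 CPM in PBS. After LPS alone, Isg15 was at 52.0, 24.1 and 54.1 CPM at 24 h and at 9.99, 6.59 and 4.32 CPM at 72 h. With antibody, Isg15 was at 172, 35.9 and 4.63 CPM at 24 h and at 170, 15.5 and 4.74 CPM at 72 h. All 3 LPS libraries at 24 h lay above the PBS libraries, and the antibody groups reached both above and below them. Usp18, which removes ISG15 from proteins and restrains the receptor, was at 9.12 to 19.0 CPM in PBS, at 26.3, 17.4 and 38.2 CPM after LPS at 24 h and at 8.61, 5.75 and 6.00 CPM after LPS at 72 h. With antibody, Usp18 was at 118, 26.1 and 2.52 CPM at 24 h and at 102, 14.8 and 3.18 CPM at 72 h. Usp18 thus kept the library order of Isg15 in both antibody groups. Dtx3l and Parp9, partners in ubiquitin and ADP-ribose transfer, overlap on opposite strands, and whether counting used strand is not given in the sources used here. Dtx3l read 229, 91.8 and 83.5 CPM with antibody at 24 h and 338, 111 and 92.8 CPM at 72 h, beside 100.3 to 125 CPM in PBS.

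Zbp1, a sensor of Z-form nucleic acid that can start necroptosis, had the widest range among the sensors. It was at 18.2, 17.2, 7.0, 13.2 and 9.90 CPM in PBS, at 36.7, 16.3 and 50.5 CPM after LPS at 24 h and at 12.6, 4.99 and 5.70 CPM after LPS at 72 h. With antibody, Zbp1 was at 262, 33.4 and 2.44 CPM at 24 h and at 212, 8.69 and 3.61 CPM at 72 h. Library 1 of the 24 h antibody group was 20.004 times the PBS mean and that of the 72 h group 16.2 times. Ifih1 (MDA5, a cytosolic RNA sensor) was at 103, 46.5 and 29.4 CPM with antibody at 24 h and at 115, 45.7 and 24.7 CPM at 72 h, beside 34.7 to 45.5 CPM in PBS. Adar, which edits adenosine in double-stranded RNA, was at 234, 167 and 97.5 CPM with antibody at 24 h and at 239, 148 and 113 CPM at 72 h, beside 147 to 167 CPM in PBS. Adar overlaps Chrnb2 on the other strand. Both genes kept the same library order as Zbp1 over a far narrower range.

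Among effectors on nucleic acids, Rsad2 (viperin, which makes a chain-terminating nucleotide) was at 11.9 to 24.3 CPM in PBS, at 12, 9.27 and 22 CPM after LPS at 24 h and at 13.5, 9.13 and 6.51 CPM after LPS at 72 h. With antibody, Rsad2 was at 97.8, 7.97 and 3.50 CPM at 24 h and at 197, 11.4 and 3.61 CPM at 72 h. Antibody libraries 2 and 3 lay below every PBS library at both times. Isg20, an RNA exonuclease, was at 85.6, 23.5 and 4.72 CPM with antibody at 24 h and at 63.5, 12.2 and 3.68 CPM at 72 h, beside 15.1 to 29.9 CPM in PBS. Slfn5, a Schlafen family member, was at 29.3, 48.6, 22.3, 20.7 and 31 CPM in PBS, at 9.83, 12.7 and 23.0 CPM after LPS at 24 h and at 14.8, 6.51 and 11.6 CPM after LPS at 72 h. With antibody, Slfn5 was at 43.3, 19.8 and 4.15 CPM at 24 h and at 64.8, 17.3 and 6.08 CPM at 72 h. Slfn5 was below all PBS libraries in the 3 LPS libraries at 72 h and in antibody libraries 2 and 3 at both times. Slfn5 overlaps an antisense transcript, Slfn5os. Helz2, a helicase and transcriptional co-activator, was at 83.2 to 113 CPM in PBS, at 61.2, 46.9 and 57.9 CPM after LPS at 72 h and at 158, 83.0 and 47.7 CPM with antibody at 72 h.

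Among the other induced genes, Phf11d had the widest spread, with 24.3, 3.20 and 0.976 CPM with antibody at 24 h and 30.4, 3.36 and 1.63 CPM at 72 h, beside 2.26 to 5.27 CPM in PBS. It has a close paralog, Phf11b, which makes its counts uncertain. Ifi27l2a, a small mitochondrial protein, departed from the rest: antibody libraries 1 read 31.4 CPM at 24 h and 20.4 CPM at 72 h, both inside the PBS range of 15.8 to 49.6 CPM. Its antibody libraries 3 read 4.39 and 6.93 CPM, below all PBS libraries. Rtp4, a chaperone of cell surface receptors, read 61.6, 23.6 and 7.15 CPM with antibody at 24 h and 81.6, 30.0 and 6.51 CPM at 72 h, beside 19.1 to 38.7 CPM in PBS.

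**Figure D3:**
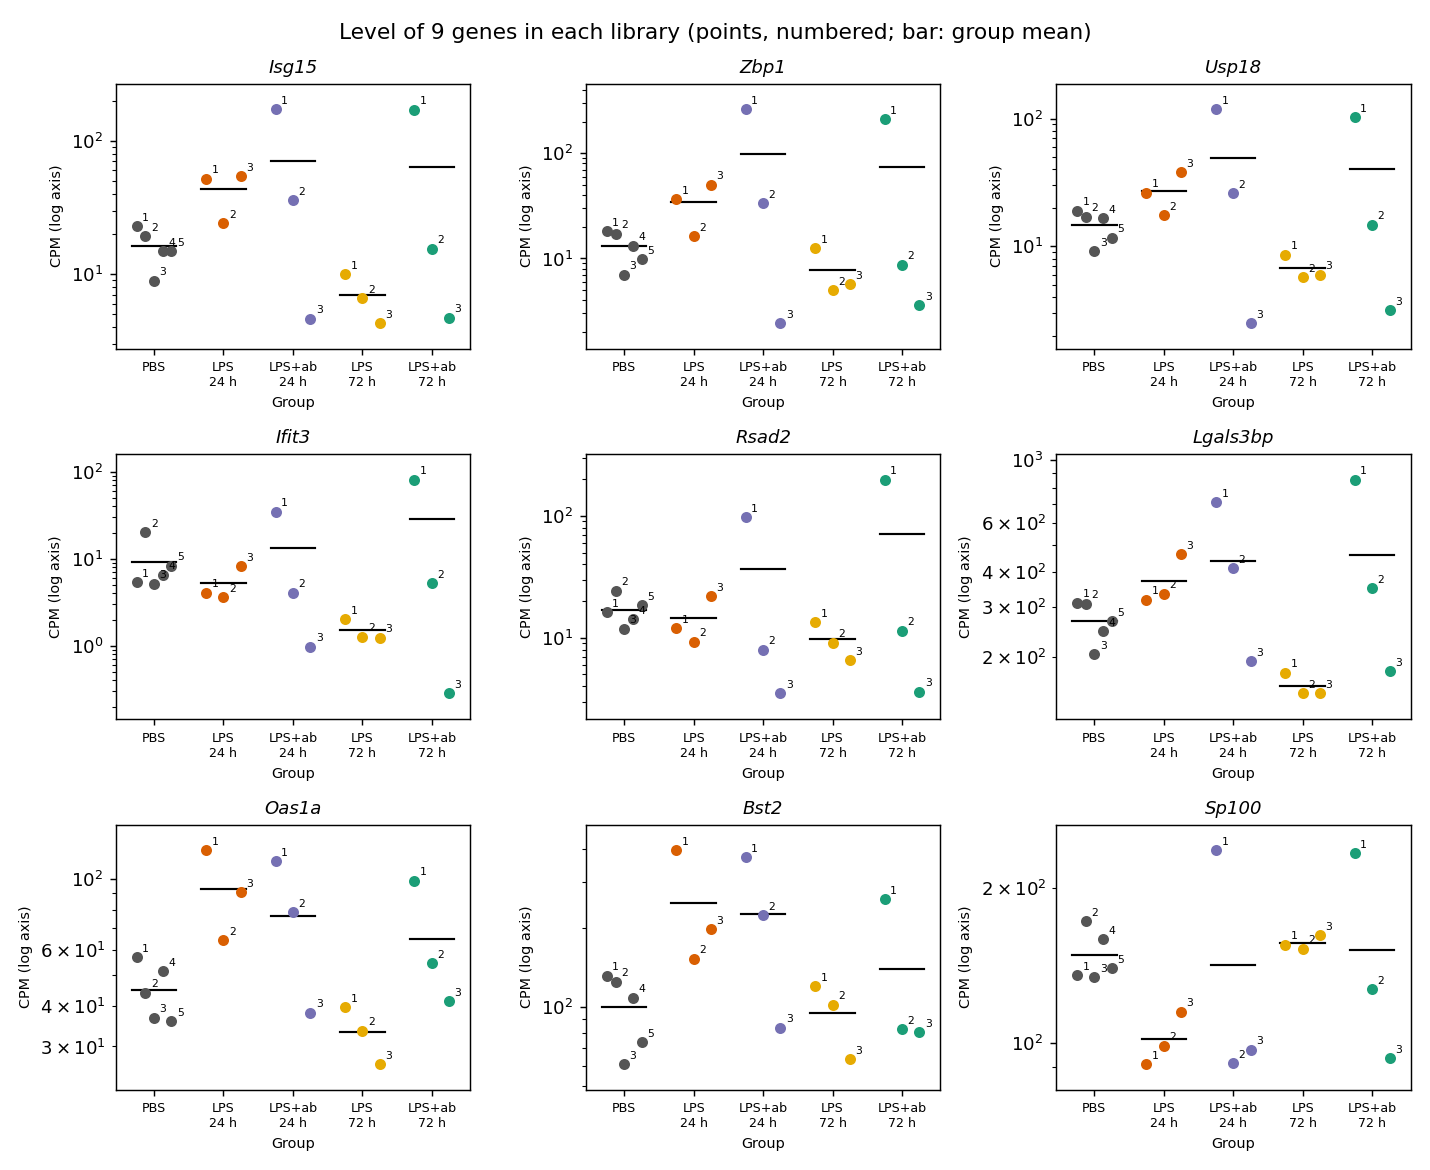
CPM (log axis) of 9 genes in every library, by group; points carry the library number, bars are group means, and ab stands for the antibody. In the antibody groups library 1 is the highest and library 3 the lowest for each gene except Sp100 at 24 h, where library 2 is lowest at 91.4 CPM.

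The size of the step from library 1 to library 3 was similar in order at both times. The median ratio over the 40 genes was 5.39 at 24 h and 6.29 at 72 h, beside 0.996 and 0.997 over all tested genes. At 24 h it ranged from 1.90 for Eif2ak2 to 107 for Zbp1, and at 72 h from 2.04 for Ifi35 to 286 for Ifit3. Across the 40 genes the 24 h ratio and the 72 h ratio had a Spearman rho of 0.90 and a Pearson r of 0.89 on the log scale. This is a description across genes, which are not independent replicates, and all ratios of 1 time share the same 2 libraries. The correlation has no value over all tested genes beside it, so it is not shown to be particular to the set. By role, antibody library 1 stood at a median of 3.23 times the PBS mean for the IFIT family at 24 h and 8.41 times at 72 h. For the OAS family the medians were 4.83 and 4.78 times, and for the sensors 2.11 and 2.51 times.

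**Figure D4:**
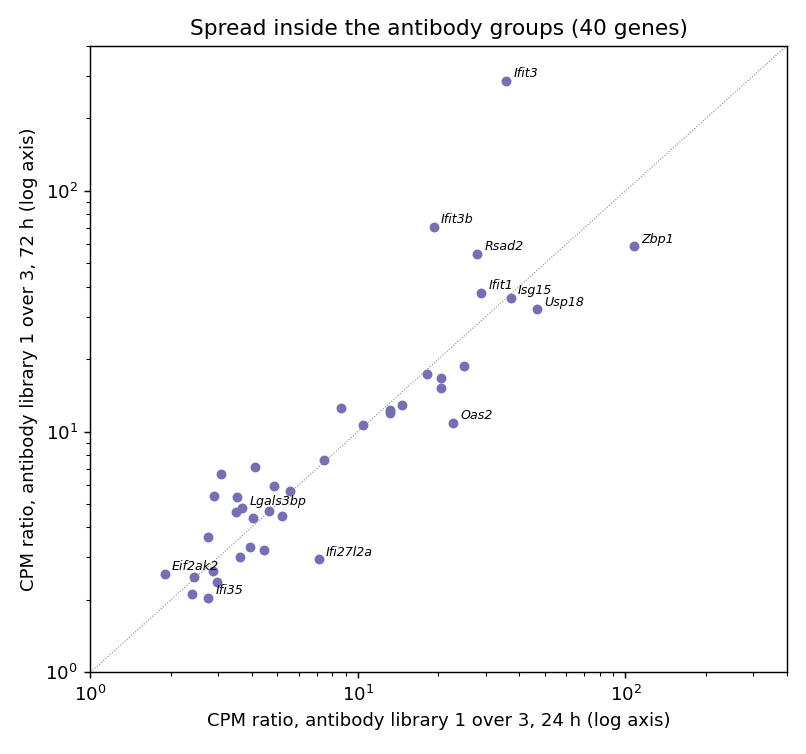
Ratio of CPM in antibody library 1 to library 3 at 24 h (x, log axis) and at 72 h (y, log axis); each point is 1 of the 40 genes and the dotted line marks equal ratios. Library 1 was the highest for all 40 genes, so all points lie above 1 on both axes. They run from 1.90 (Eif2ak2) to 107 (Zbp1) at 24 h and from 2.04 (Ifi35) to 286 (Ifit3) at 72 h.

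Markers of other cell types moved with these libraries. The 8 erythroid markers summed to 1408, 310 and 20.8 CPM in antibody libraries 1, 2 and 3 at 24 h and to 794, 138 and 7.85 CPM at 72 h, beside 172 to 316 CPM in PBS. Most of the sum in libraries 1 and 2 was Car1, at 1111 and 250 CPM at 24 h and at 702 and 104 CPM at 72 h. Library 1 was the highest for 8 of the 8 at 24 h and for 7 of the 8 at 72 h, and Hba-a1 at both times and Hbb-bs at 72 h had a library at 0. The 4 megakaryocyte markers summed to 260, 142 and 41.5 CPM and to 253, 193 and 24.0 CPM, with library 1 highest for 4 of the 4 and 1 of the 4 and Ppbp at 0 in a library at each time. Erythroid and megakaryocyte sums were thus highest where the interferon genes were highest. The 8 neutrophil genes summed to 3323, 7656 and 8832 CPM at 24 h and to 2933, 7909 and 9088 CPM at 72 h, mostly through the granule gene Mpo. At 24 h their order was split, with library 1 lowest for 4 of the 8 and library 3 lowest for the other 4, among them S100a9, Camp and Ngp. At 72 h library 1 was lowest and library 3 highest for 7 of the 8, and Ly6g was at 0 in library 3 at 24 h and in all 3 libraries at 72 h.

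Plasmacytoid dendritic cell markers, of a cell known for interferon production, summed to 106, 73.7 and 87.2 CPM in antibody libraries 1, 2 and 3 at 24 h and to 136, 106 and 101 CPM at 72 h, below the 149 CPM of the lowest PBS library. Most of that sum was Tcf4, whose highest library was 1.35-fold above its lowest at 24 h and 1.19-fold at 72 h. Siglech and Pacsin1 spread more widely, Siglech from 1.46 CPM in library 3 to 12.6 CPM in library 1 at 24 h and from 2.40 to 7.82 CPM at 72 h, and Pacsin1 from 1.14 to 12.8 CPM and from 0.778 to 16.99 CPM in the same libraries. Library 1 was highest for 5 and for 4 of the 6 markers and library 3 lowest for 4 at each time, and Klk1 had a library at 0 at 24 h. The B-lymphoid markers summed to 153, 61.4 and 67.7 CPM and to 98.8, 372 and 57.7 CPM, with library 1 highest for 7 and for 1 of the 7 and library 3 lowest for 4 and for 7, and Ms4a1 and Pax5 had a library at 0 at 72 h. Monocyte and macrophage markers summed to 862, 816 and 721 CPM and to 498, 863 and 663 CPM, with library 1 highest for 8 and for 0 of the 11 and library 3 lowest for 8 and for 6. For these last lists library 1 led at 24 h and not at 72 h. T and NK markers summed to 81.4, 131 and 211 CPM and to 50.04, 123 and 182 CPM, although library 1 was highest for 6 and for 5 of the 8 single markers, and Cd3e, Cd3g and Trac had a library at 0 at 72 h. Ly6a, a marker used in sorting these cells that interferon also induces, was at 32.6 to 85.2 CPM in PBS. It read 530, 266 and 58.1 CPM with antibody at 24 h and 632, 84.9 and 64.7 CPM at 72 h. The 10 stem and progenitor markers, Ly6a included, did not share this order. At 24 h library 1 was highest for 4 and lowest for 3 of the 10, and library 3 highest for 6 and lowest for 4. At 72 h library 1 was highest for 3 and lowest for 6, and library 3 highest for 1 and lowest for 4. The part of these cell types in the spread of the interferon genes was not tested.

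Against this background the group comparisons asked how the set differed between LPS alone and the PBS libraries, which are not matched in time. At 24 h, 2 of the 40 genes rose against PBS by edgeR's quasi-likelihood test with Benjamini-Hochberg adjustment over all tested genes at 0.05, and none fell. Over all tested genes 37.6% were called (19.1% higher, 18.5% lower), so the set held fewer calls than the background. The median log2 change of the 40 genes was 0.15, that of all tested genes -0.03. When 1 library was left out this median ranged from -0.03, without LPS library 3 at 24 h, to 0.28, without LPS library 2, and it was 0.23 without LPS library 1.

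Oas1a was at 57, 44.1, 36.8, 51.4 and 35.9 CPM in PBS and at 123, 64.3 and 90.8 CPM after LPS at 24 h. The groups did not overlap, with means of 45.1 (SD 9.16, n = 5) and 92.5 CPM (SD 29.2, n = 3). The fitted rise was 1.04 on the log2 scale (SE 0.318, edgeR adjusted p = 0.0187). Bst2 was at 132, 125, 60.9, 109 and 73.7 CPM in PBS and at 397, 153 and 198 CPM after LPS at 24 h. These libraries did not overlap either, and library 1 of the LPS group was far above the other two. Its log2 change was 1.32 (SE 0.467, edgeR adjusted p = 0.0366). Without LPS library 1 neither call held: the log2 change of Oas1a was 0.80 (adjusted p = 0.119) and that of Bst2 was 0.83 (adjusted p = 0.258). The greatest rise, Isg15 at 1.42 (SE 0.913, edgeR adjusted p = 0.233), and the greatest fall, Slfn5 at -0.996 (SE 0.683, adjusted p = 0.265), did not pass.

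The test took its spread from all 17 libraries, the antibody groups included. When only the PBS and LPS libraries of the comparison were fitted, 10 genes passed at 24 h, 8 higher and 2 lower, beside 42.1% of all genes tested in that fit. The 8 were Isg15, Oas1a, Oasl1, Usp18, Zbp1, Ifi35, Lgals3bp and Bst2, and the lower 2 were Sp100 (a nuclear body protein, log2 change -0.54, edgeR adjusted p = 0.00914) and Slfn5 (-0.99, adjusted p = 0.0363). Over all genes in that fit 20.4% were higher and 21.7% lower. Counting genes whose libraries did not overlap, 6 of the 40 were higher, beside 20.6% of all tested genes, and 1 was lower, beside 22.2%. The share of the set that rose was thus at or under the background by these counts. Marker sums of some cell types did not overlap between these groups. Stem and progenitor markers summed to 1028 to 1190 CPM after LPS at 24 h and to 1666 to 2502 CPM in PBS. B-lymphoid markers summed to 69.0 to 88.9 CPM and to 373 to 1325 CPM. Plasmacytoid markers were at 54.4 to 82.0 CPM and 149 to 267 CPM. The ranges of the other lists overlapped, and the part of these cell types in the changes was not tested.

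At 72 h after LPS no gene of the set was called against PBS by edgeR, 1 had an unadjusted p below 0.05, and DESeq2 called 0. Over all tested genes 0.0201% were called. Even so, 38 of the 40 log2 changes were negative, with a median of -0.59 beside -0.03 over all tested genes, and the steepest was Ifit3 at -2.59 (SE 1.32, adjusted p = 0.467). In 17 genes, 42.5%, all 3 LPS libraries lay below all 5 PBS libraries, and 7.01% of all tested genes did so; none of the 40 lay wholly above, where the background was 4.96%. In the fit of these 8 libraries alone 3 genes fell, beside 0.399% of all genes lower and 0.282% higher in that fit (0.68% called). They were Ifit1 (-1.66, SE 0.289, edgeR adjusted p = 0.0454), Oas2 (-1.11, SE 0.200, adjusted p = 0.0463) and Helz2 (-0.82, SE 0.125, adjusted p = 0.0441). Marker sums of other blood cells also differed between these groups: erythroid markers summed to 5.85 to 89.5 CPM after LPS at 72 h and 172 to 316 CPM in PBS, megakaryocyte markers to 29.5 to 103 CPM and 106 to 144 CPM, and B-lymphoid markers to 145 to 371 CPM and 373 to 1325 CPM. None of these ranges overlapped, and their part in the lower levels was not tested.

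From 24 h to 72 h after LPS, 1 gene of the 40 fell, beside 31.1% of all tested genes called and 16.4% lower. This was Oas1a, at 123, 64.3 and 90.8 CPM at 24 h and 39.8, 33.6 and 26.5 CPM at 72 h. Every 72 h library lay below every 24 h library, the fitted difference being -1.47 on the log2 scale (SE 0.372, edgeR adjusted p = 0.00775). The median change of the set was -0.74 beside 0.02 over all tested genes, 35 of 40 changes were negative, and the steepest, Isg15 at -2.65 (SE 1.13, adjusted p = 0.0867), did not pass. In 22 genes, 55.0%, the 72 h libraries lay wholly below the 24 h libraries, beside 23.0% of all tested genes, and 1 gene, Sp100, lay wholly above, beside 22.4%. The erythroid sums, at 267 to 602 CPM at 24 h and mostly Car1 (208 to 490 CPM), lay above those at 72 h. So did the megakaryocyte sums, at 106 to 222 CPM. Other sums lay wholly higher at 72 h. Stem and progenitor markers summed to 1028 to 1190 CPM at 24 h and 1679 to 2285 CPM at 72 h. B-lymphoid markers summed to 69.0 to 88.9 CPM and 145 to 371 CPM. The part of these cell types in the lower levels at 72 h was not tested.

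In the fit of the 6 LPS libraries alone 20 of 39 tested genes were called between the times, 19 lower and Sp100 higher, beside 27.4% of all genes called and 14.0% lower. The 19 were 48.7% of the genes tested. They took in all 5 of the OAS family, Ifit1 and Ifit3, and Isg15 (-2.63, SE 0.391, edgeR adjusted p = 0.0041) with Usp18 (SE 0.318, adjusted p = 0.00491, 0.25 times the 24 h level). The sensors Ifih1, Dhx58 and Zbp1 also fell, as did Lgals3bp (-1.23, SE 0.193, adjusted p = 0.00475) and Bst2 (-1.37, SE 0.371, adjusted p = 0.0273). Sp100 went from 91.1, 98.9 and 115 CPM to 155, 153 and 162 CPM, up 0.64 on the log2 scale (SE 0.150, adjusted p = 0.0171). Erythroid markers also differed between these groups, summing to 267 to 602 CPM at 24 h and to 5.85 to 89.5 CPM at 72 h, while plasmacytoid markers were at 54.4 to 82.0 CPM and 164 to 207 CPM. Their part in the result was not tested.

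**Figure D5:**
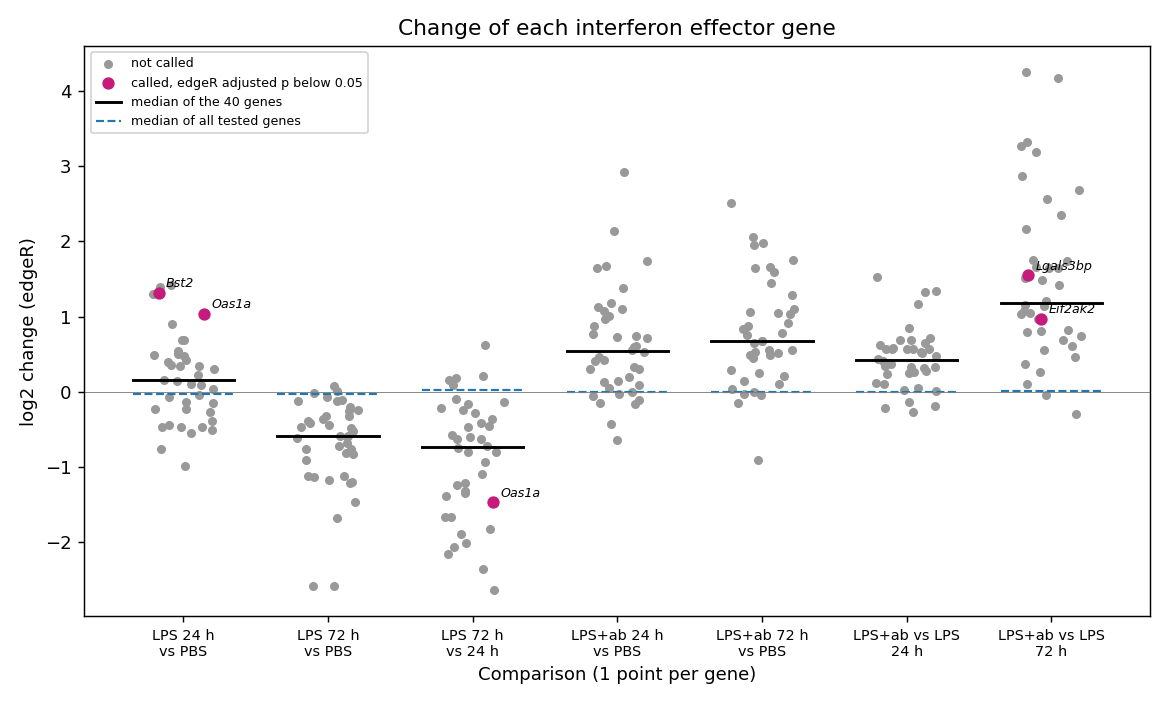
edgeR log2 change of each of the 40 genes (points) in 7 comparisons; pink points are genes called at an adjusted p below 0.05, black lines the median of the 40 genes and dashed blue lines the median of all tested genes. The set lies mostly below 0 for LPS at 72 h against PBS (median -0.59) and against 24 h (-0.74), and the antibody comparisons reach the widest range, up to 4.26 for Ifit3 at 72 h.

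The antibody groups were compared with PBS and with LPS alone at the same time. At 24 h no gene of the set was called between LPS with antibody and LPS alone, by edgeR or DESeq2. None had an unadjusted p below 0.05, and 0% of all tested genes were called. The median log2 change was 0.42, and without antibody library 1 it was -0.68. Zbp1 had the greatest rise, 1.53, and it turned to -0.94 without that library.

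At 72 h, 2 genes were higher with antibody than with LPS alone, beside 15.1% of all tested genes called and 8.64% higher. Lgals3bp was at 175, 148 and 148 CPM after LPS and at 853, 351 and 178 CPM with antibody. The groups did not overlap, although antibody library 3 was only just above the highest LPS library. Its log2 change was 1.55 (SE 0.464, edgeR adjusted p = 0.0359). Eif2ak2 (PKR, a kinase that halts translation when it binds double-stranded RNA) was at 55.5, 46.8 and 66.8 CPM after LPS and at 171, 94.6 and 66.7 CPM with antibody. Here the lowest antibody library met the highest LPS library, and the log2 change was 0.97 (SE 0.287, edgeR adjusted p = 0.0336). Without antibody library 1 the changes were 0.79 (adjusted p = 0.219) for Lgals3bp and 0.56 (adjusted p = 0.165) for Eif2ak2. The median change of the set was 1.18 with all libraries, 0.11 without antibody library 1 and 1.63 without antibody library 3. DESeq2 called 10 genes, and the fit of the compared groups alone called 0, beside 8.11% of all genes in that fit. Leaving out 1 library moved the number of calls between 0 and 13, the latter without antibody library 3. It fell to 0 without LPS library 1 or 2 or antibody library 1, and to 1 without LPS library 3. It rose to 8 without the 24 h antibody library 1, and to 5 without the 24 h antibody library 3 or the 72 h antibody library 2. The steepest change, Ifit3 at 4.26 (SE 1.45, edgeR adjusted p = 0.0585), did not pass with all libraries.

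Against PBS, no gene of the set was called with antibody at 24 h (5 at an unadjusted p below 0.05, DESeq2 1) or at 72 h (8 at an unadjusted p below 0.05, DESeq2 1), by edgeR. The share of all tested genes called was 24.2% and 13.2%. Zbp1 was the greatest rise at both times, 2.93 (SE 1.10, edgeR adjusted p = 0.0639) and 2.51 (SE 1.09, adjusted p = 0.128). Without antibody library 1 of the same time these were 0.46 and -1.08. The median change of the set was 0.54 at 24 h and 0.68 at 72 h, and turned to -0.47 and -0.50 without that library. The count at 24 h reached 6 without antibody library 3, 5 without the 72 h antibody library 1 and 1 without the 72 h antibody library 3. At 72 h it was 1 without antibody library 2. In the fit of the compared groups alone Zbp1 was called at 24 h (adjusted p = 0.0471) and no gene at 72 h, beside 28.3% and 16.1% of all genes. Between 24 h and 72 h with antibody no gene was called, none had an unadjusted p below 0.05, DESeq2 called 0 and 0% of all tested genes were called. The change of the antibody difference between the times, tested as an interaction, called 0 of the 40 (2 at an unadjusted p below 0.05, DESeq2 0) beside 6.35% of all tested genes. With the 4 groups of the interaction alone it called 0, beside 1.99% of all genes.

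Upstream in the pathway, the ligands were near the limit of detection. Of 8 interferon genes in the table none passed the filter: Ifnb1 had 2 counts in antibody library 1 at 72 h and 0 in all others, and the alpha interferons listed had 0 counts throughout. Ifng, the type II interferon, had 21 counts (1.77 CPM) in antibody library 1 at 72 h and at most 5 elsewhere. The cells that would make the ligands need not be among those sorted.

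Signalling genes that interferon itself induces were also highest in antibody libraries 1. Irf7, which amplifies interferon production, was at 33.6 to 69.3 CPM in PBS, at 453, 84.3 and 7.80 CPM with antibody at 24 h and at 493, 43.9 and 10.3 CPM at 72 h. Irf1 was at 237, 67.7 and 80.3 CPM and at 363, 67.8 and 79.1 CPM, beside 96.1 to 119 CPM in PBS. For both genes library 1 stood above the whole PBS range at both times, and for neither was an antibody comparison called.

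Of the 22 tested pathway genes, 1 rose and 4 fell after LPS at 24 h against PBS, a smaller share than the 37.6% called over all tested genes (19.1% higher, 18.5% lower). The receptor chains Ifnar1 and Ifnar2 fell by 0.48 on the log2 scale each (SE 0.137, edgeR adjusted p = 0.0132, and SE 0.128, adjusted p = 0.00943), Jak1 fell by 0.42 and Irf8, a myeloid and dendritic cell factor, fell by 0.99. The LPS libraries of Irf8, at 147, 300 and 111 CPM, overlapped the 281 to 495 CPM of PBS. Ptpn2, a phosphatase that acts on JAK kinases, rose by 0.51, at 87.0, 54.4 and 56.1 CPM beside 42.8 to 51.6 CPM in PBS. LPS library 1 was the highest of its group for Ptpn2 and the lowest for Jak1 and Ifnar1. From 24 h to 72 h after LPS, 3 of the 22 rose and none fell, beside 14.7% of all tested genes higher and 31.1% called. Ifnar1 rose by 0.66, Ifnar2 by 0.72 (SE 0.141, edgeR adjusted p = 0.00173) and Irf8 by 1.596. Ifnar2 was at 88.3, 104 and 84.1 CPM at 24 h and at 147, 144 and 164 CPM at 72 h. These groups did not overlap, and the receptor moved up over the interval in which most effector genes had lower levels. At 72 h, Ifnar2 was lower with antibody than with LPS alone, at 107, 84.8 and 119 CPM (log2 change -0.55, SE 0.141, edgeR adjusted p = 0.0181), as was Irf8 (-1.47, adjusted p = 0.0147). These 2 were the calls among the 22, beside 15.1% of all tested genes called. The antibody difference of Ifnar2 changed between the times by -0.77 (SE 0.199, interaction, edgeR adjusted p = 0.035), the 1 call of the 22 beside 6.35% of all tested genes called. Against PBS, Jak1 was lower with antibody at 24 h (-0.41, edgeR adjusted p = 0.034) and Ifngr1 higher at 72 h (0.61, adjusted p = 0.0278), each the single call among the 22, beside 24.2% and 13.2% of all tested genes called.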

How the data were processed

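The authors deposited raw counts per gene for 17 libraries. The submitters' processing notes name HISAT2 2.2.0, Subread, featureCounts 2.1.1, R 4.3.2, DESeq2 and GRCm38, with no role or order, and the annotation and strand setting are not given in the sources used here. Groups come from the sample titles. Genes were filtered with filterByExpr (14920 of 35321 kept), scaled by TMM and fitted with edgeR 4.0.16 (R 4.3.3) in 1 quasi-likelihood model of 5 group means. Calls had a Benjamini-Hochberg adjusted p below 0.05 over all tested genes, and SE is the log2 change divided by the root of F. CPM are TMM-scaled, and log2 CPM uses a prior count of 2. Alternatives were DESeq2 1.42.0, voom in limma 3.58.1 with sample weights, other scalings, no filter, compared groups only, a replicate block and leaving out libraries. The fit was tested on simulated data. Same-numbered libraries were treated as paired where every correlation of deviations was over 0.1. This held in 1 comparison, LPS at 24 h against PBS (0.19, 0.19 and 0.16). These correlations are weak and do not show matched libraries, and no label says that a number marks a shared batch. Genes given by library were the extremes among those called, the highest and most variable member of each role group and a list of anchors. Other genes were named after their values were seen. Members and lists were chosen with earlier results of these data known. Gene positions are from GENCODE and promoters from RefSeq, both GRCm38. Some items are not reported here.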

Additional observations from a re-analysis of the deposited data

Results flagged for a closer look

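In the 5 PBS libraries, 6 genes had 1 library far from the other 4 by Dixon's test, out of 41 values tested, where chance marks about 1 in 20. Ifit3 read 20.2 CPM in PBS library 2, while the others lay between 5.16 and 8.28 CPM. Ifit3b read 5.82 CPM in the same library, beside 1.13 to 1.82 CPM, and shares near-identical sequence with Ifit3. Phf11d read 5.27 CPM there too, beside 2.26 to 2.88 CPM. Ifit3, Ifit3b and Phf11d share this library, so their flags are not independent. Monocyte and macrophage markers summed to 2806 CPM in PBS library 2, beside 624 to 1191 CPM in the other PBS libraries. Its B-lymphoid sum, 1325 CPM, and plasmacytoid sum, 267 CPM, were also the highest in PBS. The part of these cell types in the flagged levels was not tested. Isg20 read 29.9 CPM in library 1, beside 15.1 to 17.7 CPM. Ifi47 read 90.4 CPM in library 3, below the 106.5 to 110.2 CPM of the others. Dtx3l read 124.6 CPM in library 5, beside 100.3 to 106.4 CPM. Oas1a after LPS was also flagged for its difference between the times, -1.47 on the log2 scale at 72 h relative to 24 h (edgeR adjusted p = 0.00775). Both times share the same PBS libraries, so this repeats the 24 h to 72 h difference given above.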

How the results depend on the processing

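With 3 libraries in 4 of the 5 groups a single library can move a count, genes with low levels rest on few counts (Ifit3b on as few as 3), and the antibody groups hold 1 high and 1 low library each, so their means rest on single libraries. With LPS at 24 h against PBS, 1 gene was called with upper-quartile scaling, 5 with voom, 10 with the compared groups only, 0 for libraries numbered 1 to 3 without a block, 0 without both 24 h libraries 1 and 6 without both antibody libraries 1. For LPS at 72 h against PBS it was 3 with voom and 3 with the compared groups only. For LPS from 24 h to 72 h it was 3 with DESeq2, 17 with voom, 20 with the compared groups only, 18 without both antibody libraries 1 and 12 without both antibody libraries 3. For antibody at 24 h against PBS it was 1 with DESeq2, 1 with the compared groups only, 3 without both antibody libraries 1 and 13 without both antibody libraries 3. For antibody at 72 h against PBS it was 1 with DESeq2, 1 without both 24 h libraries 1 and 7 without both antibody libraries 3. For antibody against LPS at 72 h it was 10 with DESeq2, 0 with the compared groups only, 1 with upper-quartile scaling, 1 for libraries numbered 1 to 3 without a block, 8 without both 24 h libraries 1, 0 without both antibody libraries 1 and 28 without both antibody libraries 3. The interaction gave 1 with voom. The settings without both libraries 1 of the antibody groups, without both libraries 3 and without a block were chosen after seeing the data. The cause of these shifts was not tested, beyond the libraries and genes each setting drops.

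With the replicate block the count was 1 for antibody against LPS at 72 h and 6 for LPS from 24 h to 72 h, and it changed no other count by over 1.5 times. In 1 of 8 comparisons, LPS at 24 h against PBS, every same-numbered pair had a correlation over 0.1 and the count stayed at 2. Elsewhere the libraries share only a number. With antibody at 72 h and 24 h the correlations were 0.72, -0.02 and 0.70, and 2 of 3 libraries correlated best with their own number, a hint from the data only.

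Leaving out 1 library gave counts of 0 to 3 for LPS at 24 h against PBS (0 without LPS library 1; 1 without PBS library 3, 4 or 5), 0 to 6 and 0 to 1 for antibody against PBS at 24 h and 72 h, 0 to 13 for antibody against LPS at 72 h, and 1 to 7 for LPS from 24 h to 72 h (7 without the 72 h antibody library 1, 4 and 3 without the 24 h antibody libraries 3 and 1, 3 without LPS library 2 at 24 h, 2 without the 72 h antibody library 3). Medians ranged from -0.47 to 1.01 and from -0.50 to 1.09 for antibody against PBS at 24 h and 72 h, from -0.68 to 0.85 for antibody against LPS at 24 h, from -0.43 to 1.77 for the interaction, from -0.03 to 0.28 for LPS at 24 h against PBS and from -0.92 to 1.16 for antibody from 24 h to 72 h. Without both 24 h libraries 1 they were -0.44 for antibody at 24 h against PBS and -0.65 against LPS. Without both antibody libraries 1 they were -0.45, -0.50 (72 h against PBS) and -0.67.

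Single genes changed direction as follows. Zbp1 with antibody against PBS at 72 h was -0.11 with voom, -1.08 (of a range to 3.07) without antibody library 1 and -1.08 without both antibody libraries 1. Zbp1 against LPS at 24 h was -0.61 with voom, -0.94 (of a range to 2.11) without antibody library 1, -0.89 without both 24 h libraries 1 and -0.93 without both antibody libraries 1. Oas1a against LPS at 24 h ranged from -0.66 to 0.0545 when 1 library was left out (0.0015 without LPS library 1, 0.0545 without antibody library 3) and was 0.0508 without both antibody libraries 3. Ifi27l2a against LPS at 72 h ranged from -0.61 to 0.0691 (0.0691 without LPS library 1, 0.0341 without antibody library 3) and was 0.0344 without both antibody libraries 3. Sp100 in the interaction ranged from -0.96 to 0.0631, the latter without the 24 h antibody library 1, and was 0.11 without both 24 h libraries 1. Ifit3b from 24 h to 72 h with antibody ranged from -2.14 to 3.86 and in the interaction from -0.0413 to 5.93, the lower values without the 72 h antibody library 1. Upper-quartile scaling moved the median of all tested genes to -0.16 for LPS at 24 h against PBS.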
